A study of Mus musculus with 7 samples.

Results

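Killer cell lectin-like receptor genes, whose symbols begin with Klr, were examined in spleens of mice that had received hepatocytes, the main cells of the liver. All rows of the deposited expression table with such a symbol were taken, which gave 27 of 22173 genes. Of these, 22 had a mean of at least 1 FPKM (fragments per kilobase of transcript, scaled to sequencing depth) over the 7 libraries, and all 22 also reached 1 FPKM as the mean of each group. The control group held 3 libraries of spleens given phosphate-buffered saline (PBS). The other group held 4 libraries of spleens given 4 injections of a biomaterial named sHA-X, which is meant to remodel the organ. Hepatocytes were injected into the spleens of both groups, and RNA of the whole spleen was sequenced 30 days later. Strain, sex and age of the mice, and whether each library came from its own animal, are not given in the sources used here. P-values therefore measure the spread between these libraries, which may be technical.

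Killer cell lectin-like receptors are membrane proteins of natural killer (NK) cells and of some T cells and myeloid cells. Inhibitory members carry a tyrosine motif that recruits phosphatases when the receptor binds a class I histocompatibility molecule or a related ligand. Activating members signal through adaptors such as DAP12 (Tyrobp) or DAP10 (Hcst). In mice most of them are encoded side by side in the NK gene complex. By the RefSeq annotation of GRCm38.p6 all 27 genes lay on chromosome 6, and 25 of them within 2.64 Mb, from Klrb1a to Klra2 (128609227 to 131247716). Klrg1 (122270596 to 122282833) and Klrg2 (38616329 to 38638815) lay outside that stretch.

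The libraries held between 29543963 and 37142126 reads, recovered from the steps of the FPKM values. Pancreatic acinar genes summed to 1023 FPKM in PBS replicate 2, with at most 35.2 FPKM in any other library. Skeletal muscle genes reached 233 FPKM in sHA-X replicate 2, where the other libraries had 16.5 FPKM or less. Hepatocyte genes reached 852 FPKM in sHA-X replicate 3 and 867 FPKM in sHA-X replicate 4, where the other libraries had 25.9 FPKM or less.

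Of the 22 tested members, 6 were lower in sHA-X (Klra4, Klrd1, Klrc2, Klri1, Klri2 and Klra9), 1 was higher (Klra2) and 15 did not pass. The threshold was an adjusted p under 0.05 by limma on log2(FPKM + 1), adjusted over all tested genes. Among all 11920 tested genes, 5.03% were called lower and 9.3% higher (14.3% in either direction), against 27.3% and 4.5% of the members. Groups did not overlap, with sHA-X lower, for 11 of the 22 members and for 11.5% of tested genes. The opposite order without overlap was seen for 1 member and for 17.2% of tested genes. The fitted change was below 0 for 18 members, or 81.8%, and for 44.2% of tested genes. It was below 0 for 20 members, beside 50.4% of tested genes, with libraries scaled by the median of ratios, and for 21 members, beside 56.9%, with quantile normalization. It was below 0 for 15 members without PBS replicate 3, beside 43.2% of tested genes, and for 16 members without sHA-X replicate 2, beside 45%. The median log2 change was -0.30 over the members and 0.03 over all tested genes.

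The summed level of the 27 genes was 125 and 126 FPKM in the first and second PBS libraries and 157 FPKM in PBS replicate 3. In sHA-X it lay between 105 and 107 FPKM in all 4 libraries. PBS replicate 3 thus stood above the other PBS libraries, and it had the highest level of all 7 libraries for 13 of the 22 tested members. T cell markers also stood highest there, at a summed 457 FPKM, where the other PBS libraries had 339 and 340 FPKM, and their part in the result was not tested. In bulk RNA of a spleen, fewer cells of a type and less RNA per cell cannot be told apart.

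The count of called members moved with single libraries. Without PBS replicate 3, 4 members were called lower, beside 5.33% of tested genes, and 1 higher, beside 10.6%. Without PBS replicate 1 the counts were 3 lower (1.91% of tested genes) and 0 higher (4.09%), and without PBS replicate 2 they were 5 (3.85%) and 0 (6.02%). Leaving out sHA-X replicate 1 gave 4 lower (2.87%) and 1 higher (6.31%). Leaving out sHA-X replicate 2 gave 6 lower (3.93%) and 1 higher (6.45%). Leaving out sHA-X replicate 3 gave 3 lower (2.9%) and 0 higher (6.78%), and leaving out sHA-X replicate 4 gave 4 lower (2.96%) and 0 higher (6.0%). Both scalings called 9 members lower, with 7.07% of tested genes under the median of ratios and 7.87% under quantile normalization, and 1 higher, with 8.41% and 6.36%. Without both second libraries, which held the acinar and muscle RNA, 3 were lower (2.77%) and 0 higher (4.13%), and Klrd1, Klrc2, Klri1, Klri2 and Klra2 were not called. Limma's voom on the recovered reads called 5 lower (5.62%) and 1 higher (8.95%), which was 14.6% of tested genes in either direction.

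**Figure D1:**
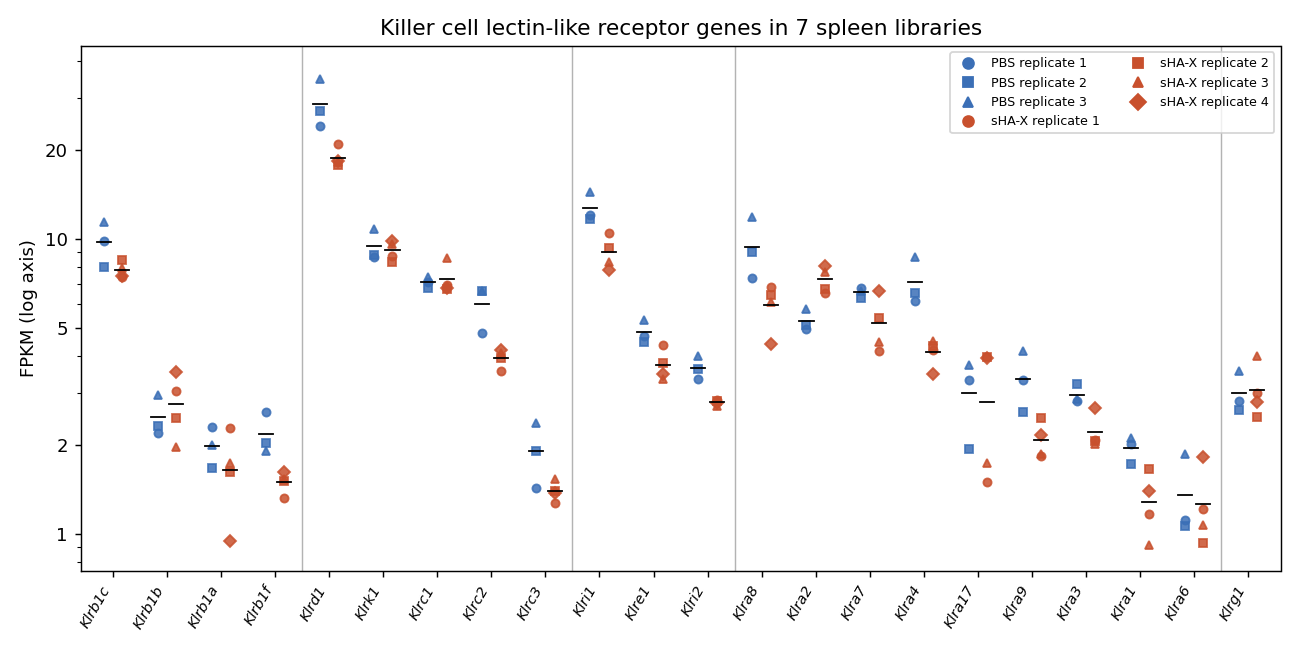
FPKM (log axis) of the 22 tested receptor genes in each of the 7 libraries, with PBS in blue, sHA-X in red, a marker shape per replicate, a black line at each group's mean and grey lines between the Nkrp1, CD94/NKG2, Klre and Klri, Ly49 and Klrg groups. Klrd1 was the highest of these genes in every library, at 17.8 to 34.8 FPKM, and Klra2 was the one gene whose sHA-X libraries all stood above all PBS libraries.

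**Figure D2:**
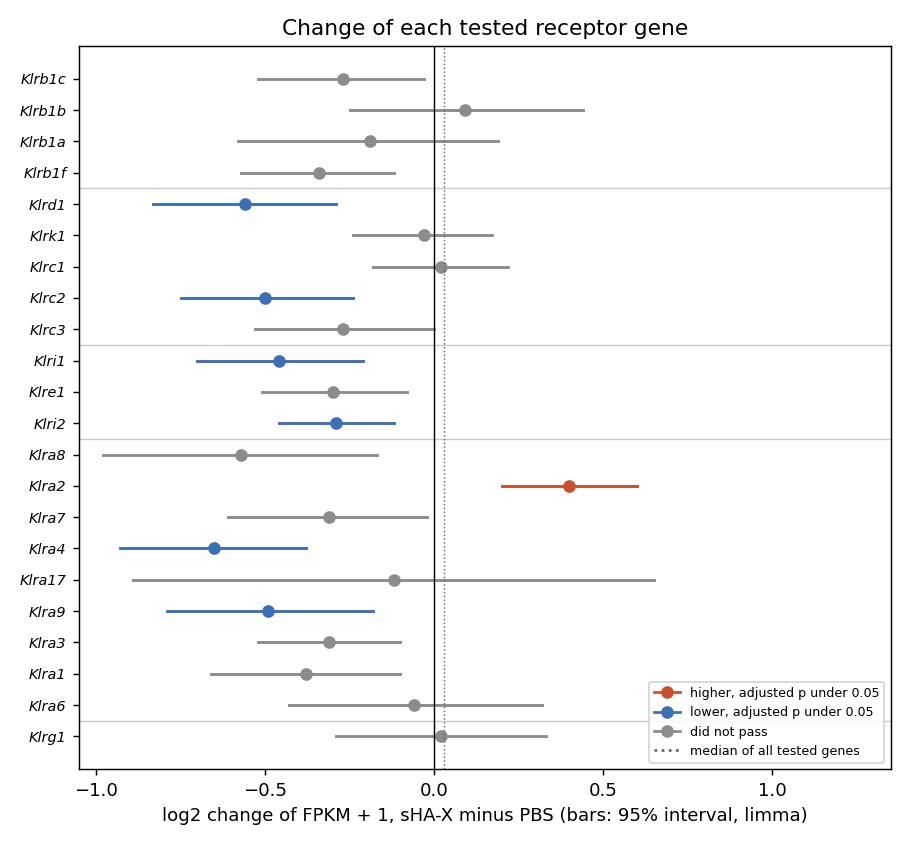
Fitted log2 change of FPKM + 1 (sHA-X minus PBS) of each tested receptor gene, with its 95% interval from limma. Blue and red mark adjusted p under 0.05, and the dotted line marks the median of all tested genes, 0.03. The change was below 0 for 18 of the 22 genes, and for 15 (without PBS replicate 3) to 21 (with quantile normalization) under the alternatives tried.

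Read as FPKM, the values are scaled to transcript length, so levels can be set side by side between genes. Klrd1 stood first at 28.6 ± 5.53 FPKM in PBS (mean ± SD, n = 3) and 18.8 ± 1.46 FPKM in sHA-X (n = 4). In PBS, Klri1 followed at 12.7 ± 1.47 FPKM, and Klrb1c, Klrk1 and Klra8 came next at 9.75, 9.41 and 9.41 FPKM, which did not differ beyond their SDs of 1.69, 1.22 and 2.26 FPKM. In sHA-X the order was another, with Klrk1 at 9.14 ± 0.71 and Klri1 at 9.0 ± 1.16 FPKM, which did not differ beyond their SDs, then Klrb1c at 7.82, Klrc1 at 7.28 and Klra2 at 7.27 FPKM, and Klra8 lower at 5.96 FPKM. The lowest tested genes were Klra1 and Klra6, with means of 1.57 and 1.30 FPKM over all libraries. A tested member had between 30 and 1462 reads in a library.

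CD94 and NKG2 receptors bind the class I molecule Qa-1 (H2-T23) as dimers of CD94, encoded by Klrd1, with an inhibitory NKG2A chain (Klrc1) or an activating NKG2C or NKG2E chain (Klrc2 and Klrc3). Klrd1 and Klrc2 were lower in sHA-X, while Klrc1 did not pass. The PBS libraries held 24.0, 27.0 and 34.8 FPKM of Klrd1 (NCBI gene 16643, chromosome 6, 129588092 to 129598775), and the sHA-X libraries held 21.0, 17.8, 18.2 and 18.4 FPKM (here and below in the order of their replicate numbers). All sHA-X libraries stood below all PBS libraries, and sHA-X replicate 1 was the nearest to them. The fitted log2 change was -0.56, with an SE of 0.12 (limma, adjusted p = 0.0176). Its call was lost without sHA-X replicate 4 (adjusted p = 0.0515, with 0.0119 to 0.142 over all alternatives).

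For Klrc2 (NCBI gene 16642, chromosome 6, 129649602 to 129660737) the PBS libraries held 4.78, 6.64 and 6.67 FPKM and the sHA-X libraries 3.55, 3.95, 4.08 and 4.19 FPKM. The groups did not overlap, and PBS replicate 1 was the lowest PBS library. Its mean FPKM fell by 34.6%, and its fitted log2 change was -0.50, with an SE of 0.11 (limma, adjusted p = 0.0224). That call was lost when either PBS replicate 2 or sHA-X replicate 1 was left out (adjusted p = 0.0684 and 0.0574) and when voom was run on the recovered reads (0.0589), within 0.0108 to 0.116 over all alternatives.

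For Klrc1 the PBS libraries held 7.13, 6.82 and 7.43 FPKM and the sHA-X libraries 6.95, 6.74, 8.62 and 6.80 FPKM. The groups overlapped, and sHA-X replicate 3 stood above all other libraries. The fitted log2 change was 0.02, with a 95% interval from -0.18 to 0.22 (limma, adjusted p = 0.904). Klrc3 was detected at 1.43, 1.91 and 2.38 FPKM in the PBS libraries and at 1.27, 1.39, 1.54 and 1.38 FPKM in the sHA-X libraries. It overlapped between the groups through PBS replicate 1 and did not pass (adjusted p = 0.162).

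Within a library, the ratio of Klrc1 to Klrc2 took the values 1.49, 1.03 and 1.11 for PBS and 1.96, 1.71, 2.11 and 1.62 for sHA-X. It was higher in every sHA-X library than in any PBS library. The ratio of Klrc1 to Klrd1 took the values 0.297, 0.252 and 0.214 for PBS and 0.331, 0.379, 0.473 and 0.370 for sHA-X, again without overlap. These pairs were chosen with their values known and carry no test.

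Klrc1, Klrc2 and Klrc3 share sequence, so that their reads may be split between them and their single values are uncertain. Of all 100-base windows in the GENCODE transcripts of Klrc1, 14.6% also occurred in a transcript of another Klr gene, against 7.1% for Klrc2 and 16% for Klrc3. These are shares of 2080 windows for Klrc1, 6179 for Klrc2 and 835 for Klrc3. The lower share of Klrc2 rests on its many windows and does not make its values more certain. With 50-base windows the shares were 38.6%, 16.3% and 36.3%. Klrd1 shared no such window with any other gene. Read length and the handling of reads that match several genes are not given in the sources used here.

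NKG2D, encoded by Klrk1 (NCBI gene 27007, chromosome 6, 129610323 to 129623903), is an activating receptor for stress-induced ligands of the Raet1, Ulbp and H60 families. Levels of Klrk1 were 8.65, 8.78 and 10.8 FPKM for PBS and 8.75, 8.35, 9.63 and 9.83 FPKM for sHA-X. The groups overlapped, and the fitted log2 change was -0.03 with a 95% interval from -0.24 to 0.17 (limma, adjusted p = 0.842). The ratio of Klrk1 to Klrd1 lay between 0.311 and 0.360 for PBS and between 0.417 and 0.535 for sHA-X, without overlap. This ratio carries no test, and Klrd1 by itself stood lower in every sHA-X library.

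**Figure D3:**
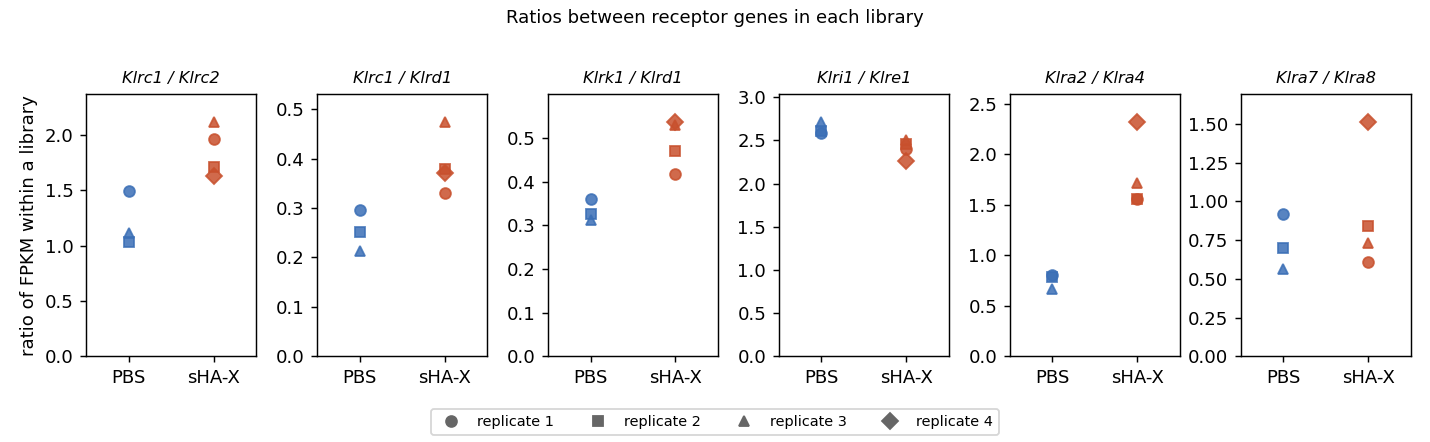
Ratio of FPKM between 2 receptor genes within each library, on axes that start at 0, with PBS in blue and sHA-X in red and a marker shape per replicate. Ratios of Klrc1 to Klrc2, Klrc1 to Klrd1, Klrk1 to Klrd1 and Klra2 to Klra4 were higher in every sHA-X library. That of Klri1 to Klre1 was lower, and that of Klra7 to Klra8 overlapped, with 1.51 in sHA-X replicate 4. The pairs were chosen with their values known and carry no test. The ratio of Klra2 to Klra4 had to stand apart, as both genes did so in opposite directions.

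Klre1 forms dimers with Klri1, which is inhibitory, or with Klri2, which is activating. All 3 genes stood lower in every sHA-X library than in any PBS library, and Klri1 and Klri2 passed the test. Of all tested genes, 11.5% stood lower without overlap and 5.03% were called lower. For Klri1 (NCBI gene 503550, chromosome 6, 129696118 to 129720610) the PBS libraries held 12.1, 11.7 and 14.4 FPKM and the sHA-X libraries 10.5, 9.32, 8.37 and 7.84 FPKM. PBS replicate 3 was highest and sHA-X replicate 4 lowest, and the fitted log2 change was -0.46, with an SE of 0.11 (limma, adjusted p = 0.0252). Its call was lost without PBS replicate 1, without PBS replicate 3, without sHA-X replicate 3 and without sHA-X replicate 4, where adjusted p rose to at most 0.0721, within 0.0169 to 0.179 over all alternatives.

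Klri2 was detected at 3.34, 3.61 and 3.99 FPKM in the PBS libraries and at 2.83, 2.83, 2.72 and 2.78 FPKM in the sHA-X libraries. The SD within sHA-X was 0.0518 FPKM (n = 4), and the fitted log2 change was -0.29, with an SE of 0.07 (limma, adjusted p = 0.0333). Its call was lost in each of the 7 fits without 1 library, at adjusted p of 0.0597 to 0.0801, within 0.0112 to 0.221 over all alternatives. For Klre1 the PBS libraries held 4.67, 4.48 and 5.31 FPKM and the sHA-X libraries 4.35, 3.79, 3.34 and 3.47 FPKM. It did not pass (log2 change -0.30, SE 0.09, adjusted p = 0.0712) except without sHA-X replicate 1 (0.0490, within 0.0490 to 0.161 over the fits without 1 library). Klre1 and Klri1 varied together over the 7 libraries, with Pearson r = 0.98, and 0.95 after the group means were removed. These libraries differ in depth and cell makeup, which every gene of a library shares, and the values are given as a description.

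Ly49 receptors, encoded by the Klra genes, bind class I molecules in mice. Of the 11 members, 9 were tested, 2 were lower, 1 was higher and 6 did not pass. Of all tested genes, 5.03% were lower and 9.3% higher. The activating receptors Ly49D (Klra4) and Ly49H (Klra8) both stood lower in every sHA-X library than in any PBS library. So did 11.5% of all tested genes. For Klra4 (NCBI gene 16635, chromosome 6, 130043730 to 130067301) the PBS libraries held 6.15, 6.54 and 8.69 FPKM and the sHA-X libraries 4.21, 4.35, 4.501 and 3.48 FPKM. The highest sHA-X library was below the lowest PBS library by more than the SD of 0.453 FPKM within sHA-X. Its mean fell by 42.0%, and the fitted log2 change was -0.65, with an SE of 0.12 (limma, adjusted p = 0.0102). Klra4 was called in each of the 7 fits without 1 library, at adjusted p of 0.0131 to 0.0269, and under 15 of all 16 alternatives, at 0.00763 to 0.067 over the 16.

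For Klra8 (NCBI gene 16639, chromosome 6, 130115226 to 130129898) the PBS libraries held 7.36, 9.02 and 11.8 FPKM and the sHA-X libraries 6.88, 6.43, 6.11 and 4.41 FPKM. PBS libraries had an SD of 2.26 FPKM, and the gene did not pass (log2 change -0.57, SE 0.17, limma adjusted p = 0.0683). Klra4 and Klra8 are neighbours among the members on the chromosome. Their levels varied together with Pearson r = 0.95 over the 7 libraries, and 0.92 after the group means were removed, as a description. Such values were not particular to neighbours. Klrd1 and Klri2, which are not adjacent, had r = 0.97 and 0.91, and the adjacent Klra8 and Klra9 had 0.73 and 0.25. The ratio of Klra8 to Klra4 lay between 1.20 and 1.38 for PBS and between 1.27 and 1.63 for sHA-X, and overlapped.

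The sequences ahead of the start sites of Klra4 and Klra8 are shown because they resemble each other. Such likeness was not particular to this pair. The windows of Klra6 and Klra8 were 86.1% identical over 208 aligned bases, and those of Klra17 and Klra4 84.2% over 240. Klra6 and Klra17 did not pass, and a link between these sequences and the levels was not tested. RefSeq promoters (GRCm38.p6) were found for 24 of the 27 members, leaving Klrd1, Klrg1 and Klri2. The stretches printed are chr6:130067302-130067521 for Klra4 and chr6:130129929-130130148 for Klra8, 5′ to 3′ on the minus strand, and 0 GENCODE exons overlapped them. Over 219 aligned bases, 84.9% were identical, and capitals mark the bases with no identical partner in the other sequence.
Klra4: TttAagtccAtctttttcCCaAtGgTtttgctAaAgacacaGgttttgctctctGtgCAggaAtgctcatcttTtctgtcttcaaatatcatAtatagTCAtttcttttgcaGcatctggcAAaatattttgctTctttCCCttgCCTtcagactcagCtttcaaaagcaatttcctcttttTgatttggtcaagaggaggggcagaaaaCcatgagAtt
Klra8: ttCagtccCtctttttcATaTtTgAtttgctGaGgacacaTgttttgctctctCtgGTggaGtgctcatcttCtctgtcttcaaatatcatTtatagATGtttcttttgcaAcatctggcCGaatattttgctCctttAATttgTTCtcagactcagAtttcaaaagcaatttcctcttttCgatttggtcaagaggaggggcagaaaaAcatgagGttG

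Ly49I, encoded by Klra9 and inhibitory, was also lower in sHA-X. For Klra9 (NCBI gene 16640, chromosome 6, 130178626 to 130194374) the PBS libraries held 3.33, 2.58 and 4.16 FPKM and the sHA-X libraries 1.83, 2.47, 1.86 and 2.16 FPKM. PBS replicate 2 came close to sHA-X replicate 2, but the groups did not overlap (log2 change -0.49, SE 0.13, limma adjusted p = 0.0439). That call was lost in 5 of the 7 fits without 1 library, those without PBS replicates 1 and 3 and without sHA-X replicates 1, 3 and 4, at adjusted p of 0.0852 to 0.136. It was also lost with voom (0.0589), without robust variance estimation (0.0532) and with genes kept from 0.1 FPKM (0.0515) or with no filter (0.0722).

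Klra3, which encodes the inhibitory Ly49C, was detected at 2.82, 3.21 and 2.85 FPKM in the PBS libraries and at 2.09, 2.06, 2.02 and 2.67 FPKM in the sHA-X libraries. Groups did not overlap, with sHA-X replicate 4 nearest to PBS, and the gene did not pass (log2 change -0.31, SE 0.09, limma adjusted p = 0.0619). It passed without sHA-X replicate 4 (0.0315) and with both scalings (0.0468 and 0.0191), within 0.0191 to 0.254 over all alternatives. Of the 50-base windows in transcripts of Klra9, 29.8% occurred in another member, 13.1% in Klra3. Of those of Klra3, 20.7% occurred in another member, 13.5% in Klra9. With 100-base windows the shares with any other member were 0.5% and 1.8%, so single values of both genes are uncertain mainly if reads were short.

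The windows ahead of a listed start of Klra9 and Klra3 are shown because they were nearly alike, with 224 of 231 aligned bases identical. They lie at chr6:130193113-130193362 and chr6:130337627-130337876 (minus strand), and that of Klra9 lies inside the span of its own gene but in no GENCODE exon. Capitals mark bases with no identical partner, ends past the aligned part included.
Klra9: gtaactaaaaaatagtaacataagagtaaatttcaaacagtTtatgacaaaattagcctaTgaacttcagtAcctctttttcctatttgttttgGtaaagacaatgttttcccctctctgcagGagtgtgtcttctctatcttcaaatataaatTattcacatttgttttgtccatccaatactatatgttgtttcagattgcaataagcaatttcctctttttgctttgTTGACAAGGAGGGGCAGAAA
Klra3: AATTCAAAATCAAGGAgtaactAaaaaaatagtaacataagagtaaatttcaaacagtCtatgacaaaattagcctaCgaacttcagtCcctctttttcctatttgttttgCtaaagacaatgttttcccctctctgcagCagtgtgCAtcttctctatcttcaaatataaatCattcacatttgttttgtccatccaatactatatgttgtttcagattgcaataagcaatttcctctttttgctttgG

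Klra2 encodes Ly49B, an inhibitory receptor known from myeloid cells rather than NK cells. It was the 1 tested member that rose. For Klra2 (NCBI gene 16633, chromosome 6, 131198970 to 131247716) the PBS libraries held 4.94, 5.10 and 5.78 FPKM and the sHA-X libraries 6.55, 6.77, 7.72 and 8.05 FPKM. All sHA-X libraries stood above all PBS libraries, and the fitted log2 change was 0.40, with an SE of 0.09 (limma, adjusted p = 0.0215). Its call was lost when PBS replicate 1 or 2 was left out, likewise for replicates 3 and 4 of sHA-X and for both second libraries together, within 0.0169 to 0.102 over all alternatives. Klra2 shared no 50-base window with another gene.

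Monocyte, neutrophil and macrophage markers were higher in the same libraries as Klra2. Of 16 listed, 12 rose, none fell and 4 did not pass, beside 9.3% of all tested genes that rose and 5.03% that fell. Their summed level lay between 2824 and 3664 FPKM for PBS and between 5024 and 6297 FPKM for sHA-X. Most of this sum in each library came from S100a8 and S100a9, which did not pass (limma adjusted p = 0.116 and 0.109). The 6 with the smallest adjusted p were the macrophage genes Cd5l (75.8 ± 5.69 to 232.1 ± 23.3 FPKM), C1qb, Cd68, C1qc and C1qa and the granulocyte receptor gene Csf3r. Their part in the level of Klra2 was not tested. The ratio of Klra2 to Klra4 lay between 0.665 and 0.803 for PBS and between 1.55 and 2.32 for sHA-X. As Klra2 stood higher and Klra4 lower in every sHA-X library, this ratio had to stand apart and adds no support.

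Klra17 encodes Ly49Q, an inhibitory receptor of plasmacytoid dendritic cells and other myeloid cells. Its PBS libraries held 3.31, 1.94 and 3.74 FPKM and its sHA-X libraries 1.498, 3.99, 1.73 and 3.94 FPKM. PBS replicate 2 and sHA-X replicates 1 and 3 were low and the others high, so both groups spread widely (95% interval of the log2 change -0.89 to 0.65, limma adjusted p = 0.846). Of 13 plasmacytoid dendritic cell markers, 4 fell, 1 rose and 8 did not pass, beside 5.03% of all tested genes that fell and 9.3% that rose. One of the 8, Atp2a1, is also a skeletal muscle gene and reached the filter through sHA-X replicate 2 alone (19.1 FPKM, and at most 0.374 FPKM elsewhere), and Cox6a2 was also highest there (4.35 FPKM). Without that library, 12 were tested, 5 fell (Cox6a2 was the added one), 1 rose and 6 did not pass. Siglech, a receptor of these cells, fell from 20.8 ± 1.95 to 8.34 ± 1.05 FPKM (limma adjusted p = 0.000462), and Cd300c, Spib and Ccr9 also fell. Bst2, which interferon also induces, rose. Whether the RNA of these called genes, Spib among them, came from plasmacytoid dendritic cells alone was not tested. Of 10 conventional dendritic cell markers, Clec9a, Dpp4 and Xcr1 fell and 7 did not pass, beside 5.03% of all tested genes that fell. Without sHA-X replicate 2, Clec9a and Dpp4 fell, beside 3.93% of all tested genes.

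Klra7 encodes the inhibitory Ly49G. Its PBS libraries held 6.79, 6.32 and 6.67 FPKM and its sHA-X libraries 4.17, 5.40, 4.47 and 6.67 FPKM. Of the sHA-X libraries, replicate 4 alone reached the PBS range. The gene did not pass (limma adjusted p = 0.148) except without that library (0.0366, with a log2 change of -0.42, and 0.0366 to 0.329 over all alternatives).

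Klra1, which encodes the inhibitory Ly49A, was detected at 2.01, 1.73 and 2.12 FPKM in the PBS libraries and at 1.16, 1.66, 0.915 and 1.399 FPKM in the sHA-X libraries. Its groups did not overlap, and it did not pass (limma adjusted p = 0.0736) except without sHA-X replicate 2 (0.0467, within 0.0467 to 0.203 over the fits without 1 library). Klra6, which encodes the inhibitory Ly49F, was detected at 1.116, 1.07 and 1.87 FPKM in the PBS libraries and at 1.21, 0.931, 1.07 and 1.83 FPKM in the sHA-X libraries. It overlapped between the groups and had a log2 change of -0.06 (95% interval -0.43 to 0.32, adjusted p = 0.862).

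Part of the Ly49 transcripts is shared with annotated pseudogenes. Of the 100-base windows of Klra8, 13.7% occurred outside the family, in Klra14-ps above all. The share was 3.5% for Klra9 and 1.8% for Klra7, and 0.0% for Klra4 and Klra2. Reads of Klra8 are therefore less certain than those of Klra4.

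Nkrp1 receptors, encoded by the Klrb1 genes, bind C-type lectin-like ligands of the Clec2 family. None of the 4 tested members passed by limma, and voom called 1, Klrb1f. At an unadjusted p under 0.05 were 2 of the 4, beside 29.7% of all tested genes. Klrb1c, which encodes NK1.1, the NK cell marker of some mouse strains, was detected at 9.85, 8.01 and 11.4 FPKM in the PBS libraries and at 7.44, 8.44, 7.94 and 7.47 FPKM in the sHA-X libraries. The groups overlapped through PBS replicate 2 (log2 change -0.27, SE 0.11, limma adjusted p = 0.124), and the gene passed without that library (0.0294, within 0.0294 to 0.289 over the fits without 1 library).

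Klrb1f, an activating member, was detected at 2.60, 2.02 and 1.91 FPKM in the PBS libraries and at 1.32, 1.51, 1.53 and 1.62 FPKM in the sHA-X libraries. Its groups did not overlap, and it lay just outside the threshold (log2 change -0.34, SE 0.10, limma adjusted p = 0.0501). It passed without PBS replicate 3 (0.0389), with both scalings (0.0413 and 0.0191) and with voom (0.0465), within 0.0191 to 0.227 over all alternatives.

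Klrb1b encodes an inhibitory receptor for Clec2d. Its PBS libraries held 2.20, 2.31 and 2.95 FPKM and its sHA-X libraries 3.05, 2.48, 1.97 and 3.53 FPKM, and the groups overlapped (95% interval of the log2 change -0.25 to 0.44, limma adjusted p = 0.731). Klrb1a, an activating member, was detected at 2.29, 1.67 and 1.99 FPKM in the PBS libraries and at 2.29, 1.61, 1.74 and 0.947 FPKM in the sHA-X libraries. The groups overlapped, with sHA-X replicate 4 below all others (limma adjusted p = 0.490). Klrb1b and Klrb1c share 22.3% and 10.5% of their 100-base windows with the annotated gene Gm44511, which makes their single values uncertain.

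Klrg1 encodes an inhibitory receptor for cadherins on NK and effector T cells. Its PBS libraries held 2.82, 2.64 and 3.57 FPKM and its sHA-X libraries 3.01, 2.49, 4.01 and 2.79 FPKM. The groups overlapped, and the log2 change was 0.02 (95% interval -0.29 to 0.33, limma adjusted p = 0.953). Its ligand gene Cdh1, which encodes E-cadherin, had a mean under 1 FPKM and was not tested.

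The other 5 members were under 1 FPKM in every library and were not tested. Klra10 lay between 0.378 and 0.784 FPKM and Klra5 between 0.101 and 0.475 FPKM. Klrb1 lay between 0.266 and 0.535 FPKM for PBS and between 0 and 0.230 FPKM for sHA-X. These stand for 10, 20 and 18 reads in the PBS libraries and 0, 5, 9 and 1 reads in the sHA-X libraries, and the 0 in sHA-X replicate 1 allows up to 0.0803 FPKM (3 reads, counting error only). With genes kept from a mean of 0.1 FPKM, Klrb1 had a limma adjusted p of 0.0511 and a log2 change of -0.37. Klrg2 was at most 0.0541 FPKM, and Klrh1 had 0 reads in all 7 libraries.

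NK cell markers outside the family did not move as one. Of 20 tested, Itga2, Cd7 and Txk fell, Sh2d1b1 rose and 16 did not pass, with a median log2 change of -0.10. Of all tested genes, 5.03% fell and 9.3% rose. Groups did not overlap, with sHA-X lower, for 6 of the 20 and for 11.5% of tested genes. With sHA-X higher they did not overlap for 2 and for 17.2% of tested genes. Without sHA-X replicate 2 none of the 4 called markers passed, and S1pr5 fell. Ncr1, the activating receptor NKp46 found on NK cells, was detected at 7.81, 8.61 and 7.74 FPKM in the PBS libraries and at 6.72, 8.06, 7.48 and 5.17 FPKM in the sHA-X libraries. Its groups overlapped (log2 change -0.22, SE 0.13, limma adjusted p = 0.292). Nkg7 was at 46.8 ± 3.23 and 45.5 ± 1.33 FPKM, and Prf1, which encodes perforin, at 6.06 ± 1.0 and 6.76 ± 0.63 FPKM. Eomes, a transcription factor of NK cells (adjusted p = 0.190), and the granzyme gene Gzma (0.0740) did not pass. The summed level of the list lay between 448 and 565 FPKM for PBS and between 445 and 463 FPKM for sHA-X. Ccl5 and Irf8 weighed most in that sum, with means of 128.0 and 107.8 FPKM over all libraries. Whether their RNA came from NK cells alone was not tested, so the sum need not follow these cells.

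Set against Ncr1 within each library, Klra4 stood lower and Klra2 higher in every sHA-X library than in any PBS library. The ratio of Klra4 to Ncr1 took the values 0.787, 0.760 and 1.123 for PBS and 0.627, 0.539, 0.602 and 0.672 for sHA-X. That of Klra2 to Ncr1 lay between 0.593 and 0.747 for PBS and between 0.840 and 1.56 for sHA-X. For the other 20 tested members these ratios overlapped between the groups, as for Klrd1 (3.08 to 4.49 and 2.21 to 3.55) and Klrc2 (0.611 to 0.862 and 0.490 to 0.809). Ratios to Ncr1 were not formed for genes outside the family, so how often any gene would stand apart in this way is not known. Of 14 T cell markers, all had a fitted change below 0, beside 44.2% of all tested genes. Cd8a, from 29.8 ± 5.77 to 21.7 ± 0.82 FPKM, was the 1 that passed (limma adjusted p = 0.0398), with Cd3e at 0.0988. Without sHA-X replicate 2, no T cell marker passed. The part of T cells and NK cells in the receptor levels was not tested.

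**Figure D4:**
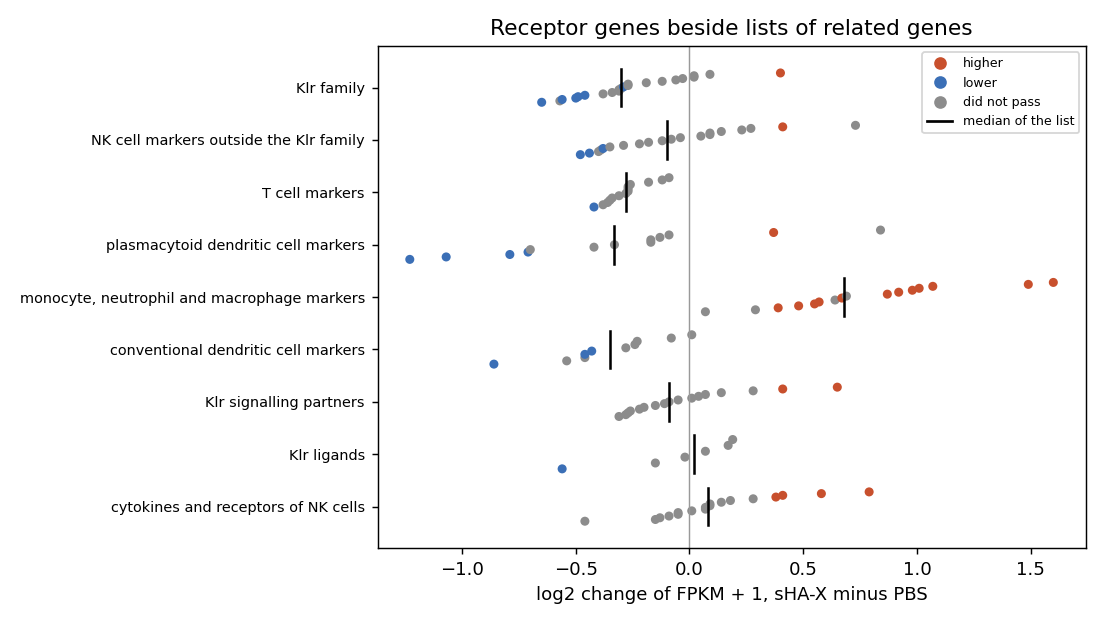
Fitted log2 change of FPKM + 1 (sHA-X minus PBS) for each tested gene of the receptor family and of 8 lists of related genes, with 1 dot per gene, blue for lower and red for higher at adjusted p under 0.05, and a black line at each list's median. The family's median was -0.30, that of NK cell markers outside the family -0.10, that of T cell markers -0.28 and that of myeloid markers 0.68.

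Of 17 signalling partners of the receptors, Fcer1g and Sh2d1b1 rose, none fell and 15 did not pass, beside 9.3% of all tested genes that rose, which is near the share of the partners. Without sHA-X replicate 2, Fcer1g alone passed. Fcer1g, an adaptor of NK cells and myeloid cells, rose from 142.1 ± 18.7 to 222.7 ± 5.87 FPKM (limma adjusted p = 0.00260). Tyrobp, which pairs with Ly49D and Ly49H and is also abundant in myeloid cells, was at 344.0 ± 44.8 and 416.4 ± 9.99 FPKM (adjusted p = 0.0602). Hcst, the partner of NKG2D, was at 32.5 ± 8.24 and 26.5 ± 2.65 FPKM (adjusted p = 0.299). A link between the level of Tyrobp and that of Klra4 was not tested.

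Of 6 tested ligand genes, Clec2i fell from 31.3 ± 2.97 to 20.9 ± 1.45 FPKM (limma adjusted p = 0.00368), none rose and 5 did not pass, beside 5.03% of all tested genes that fell. Clec2i encodes a ligand of Nkrp1 receptors. Clec2d, the ligand of the Klrb1b product, was at 155.8 ± 15.0 and 141.1 ± 19.6 FPKM (adjusted p = 0.432). H2-T23, whose product CD94 and NKG2 receptors bind, was at 250.7 ± 10.5 and 263.5 ± 3.92 FPKM (adjusted p = 0.419). Of the ligand genes of NKG2D in the list, Ulbp1 alone reached the filter and did not pass.

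Of 18 tested genes of NK cell cytokines and their receptors and signals, 4 rose, none fell and 14 did not pass, beside 9.3% of all tested genes that rose. Without sHA-X replicate 2, 17 were tested, Il15, Il12b and Stat4 rose and Il12a fell, and Il15ra did not pass. Il15, which sustains NK cells, rose from 3.09 ± 0.17 to 4.44 ± 0.36 FPKM (limma adjusted p = 0.0124) and its receptor chain Il15ra from 2.59 ± 0.38 to 3.65 ± 0.23 FPKM (0.0267). Il12b, a subunit of interleukin 12, rose from 1.502 ± 0.17 to 3.36 ± 0.51 FPKM (0.00285). Stat4, which carries its signal, rose from 15.99 ± 1.07 to 24.6 ± 3.16 FPKM (0.00766).

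Motifs of NK cell transcription factors were searched on both strands in the 250 bases ahead of a listed RefSeq start of 24 members. The RUNX motif ACCACA was found in 8 (33.3%) and in 14.0% of all 32851 promoters. The T-box motif AGGTGT was found in 2 (8.3%) against 11.8%, the TCF1 motif CTTTGA in 3 (12.5%) against 13.8%, and the ETS motif CGGAAG in 0 against 13.6%. Of the 24 windows, 8 lay outside the span of their own gene, and 3 of these held the RUNX motif. The members with it were Klra1, Klrb1a, Klrb1c, Klrc1, Klrc2, Klrc3, Klre1 and Klrk1, of which Klrc2 alone was called lower. These 8 are not independent. The windows of Klrc2 and Klrc3 were 98.6% identical over their aligned bases, and those of Klrb1a and Klrb1c 89.5%. For members the first listed start of each gene was used, and for the background every listed promoter, so the shares are of unlike sets. Enrichment was not tested.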

How the data were processed

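RNA of whole spleens was measured in 7 libraries (3 PBS, 4 sHA-X). The deposited table holds 1 value per gene and library. The authors' values were read as FPKM, because each of the 16889 genes detected in 2 libraries or more came out as whole multiples of a gene-specific step (within 0.01 of a read). For genes detected in few libraries this search could not fail. The relative steps of the libraries matched their total recovered reads within 0.0965%. That the gene-specific step reflects transcript length was not tested. Tools listed in the submitters' processing notes, without roles, are HISAT2, fastp, HTSeq, DESeq2 and R 3.2.0, with the build mm10. RNA was isolated with TRIzol and a VAHTS kit made the libraries, per the labels' protocols. Whether counting used strand is not stated there.

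Members and gene lists were chosen with earlier results of these data known. Members were all rows whose symbol starts with Klr. From each other list, at most 6 called genes with the smallest adjusted p were named, plus a set list of names. Genes with a mean of at least 1 FPKM (11920) entered limma 3.58.1 (R 4.3.3) as log2(FPKM + 1), with trend and robust variance, group as the only term and Benjamini-Hochberg adjustment over all of them. Calls needed an adjusted p under 0.05. A change on this scale understates that of low genes. The fit was tested on simulated data. Alternatives were another pseudocount, filter and scaling, variance without the robust step, the replicate number as a block, libraries left out, and limma's voom on recovered reads. Counts of the related lists without sHA-X replicate 2 were added after seeing the data. Transcript windows came from GENCODE and promoters from RefSeq (GRCm38.p6).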

Additional observations from a re-analysis of the deposited data

Results flagged for a closer look

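Of 45 sets of 4 sHA-X values examined, 4 held a library whose gap to the next took up most of the range of the group, where chance gives about 1 in 20. Klrc1 was 8.62 FPKM in sHA-X replicate 3, against 6.74 to 6.95 FPKM in the other 3. Klra3 was 2.67 FPKM in sHA-X replicate 4, against 2.02 to 2.09 FPKM in the other 3. The summed level of the activating Ly49 genes Klra4 and Klra8 was 7.89 FPKM in sHA-X replicate 4, against 10.6 to 11.1 FPKM in the other 3. The summed skeletal muscle markers were 233 FPKM in sHA-X replicate 2, against 8.55 to 11.04 FPKM in the other 3.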

How the results depend on the processing

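Of the 7 called members, Klra4 was called under 15 of 16 alternatives, Klrd1 under 13, Klrc2 under 11, Klri1 and Klra2 under 10, Klri2 under 7 and Klra9 under 6, and none of these 7 changed sign. Fits without 1 library called 3 to 6 members lower and 0 to 1 higher, beside 228 to 637 lower and 488 to 1263 higher among all genes. Without both second libraries, 3 members (Klra4, Klra9 and Klrb1c) were lower and 0 higher, beside 330 and 492 of all genes, where fewer libraries were tested. With the replicate number as a block in limma, 0 members were lower and 0 higher (72 and 276 of all genes). As sHA-X alone has a replicate 4, that library added nothing to the change in the blocked fit. Klra4 was lost in that fit alone (adjusted p = 0.067, log2 change within -0.79 to -0.52 over all alternatives). At an unadjusted p under 0.05 it had 10 members lower and 1 higher, beside 6.83% and 12.4% of all tested genes, and voom without a block called 5 and 1. Same-numbered libraries share only a number (correlation of their deviations 0.15, -0.21 and -0.29). Quantile normalization called 938 of all genes lower. Of all calls, 64.9% were higher as reported, 44.7% with quantile normalization and 54.3% with the median of ratios. The cause was not tested. Members near 1 FPKM rest on as few as 30 reads in a library.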
